A study of Xenopus laevis with 12 samples.

Results

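A group of 52 gene IDs of Xenopus laevis, the African clawed frog, was low in foregut endoderm explants cultured with 25 or 500 nM retinoic acid (RA) and stood near the vehicle level at 200 nM. The 52 were chosen among 44478 IDs by their group means in CPM (counts scaled to 1 common library total). An ID was taken when its DMSO mean was at least 3 CPM, its log2 ratio against DMSO was at or under -1 at 25 nM and at 500 nM, and its log2 ratio at 200 nM lay between -0.5 and 0.5. In these log2 ratios 0.5 CPM was added to each mean. Because these values chose the members, the levels against DMSO given here are a description and carry no test.

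The explants came from wild-type embryos of the line NXR_0031. Foregut endoderm was dissected at stage 15 of the Nieuwkoop-Faber (NF) series and kept in culture until stage 25, which took about 16 hours at 15 °C. The 4 groups were 0.1% DMSO vehicle and RA at 25, 200 or 500 nM, with 3 libraries each, and each library was a pool of 8 explants. Total counts ran from 17782601 to 39147729 per library. The lowest was DMSO replicate 2 and the highest was 500 nM replicate 1. In the members, the 3 libraries at 500 nM lay apart from each other and replicate 3 at 200 nM lay under the other 2, and each library's values are therefore given. The labels count each pool as a biological replicate but do not say whether the pools came from separate clutches, so errors here measure the spread between these pools.

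Cells make retinoic acid from vitamin A, and it binds nuclear receptors of the RAR family, which sit with RXR partners on DNA near their target genes. In the vertebrate embryo it patterns the gut tube from front to back and takes part in the specification of organs such as lung and pancreas. Enzymes of the CYP26 family degrade it, and the gene for CYP26A1 is a textbook target of RA itself. The IDs of the 2 deposited tables are not paired with gene names there, and 0 of the 44478 IDs were found in a RefSeq gene table of the species, so the members are given no gene names or functions, no sequences are shown, and the foregut label was not checked against marker genes. The lists of marker and RA-response genes drawn up for this tissue were not run for the same reason. Of the members, 4 are given by ID and the other 48 by their rank in DMSO mean CPM, from 1 to 52, where the rank is only a name. In pooled explants, fewer cells of a type and less RNA per cell cannot be told apart.

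The members were part of a larger pool of IDs that were low at both 25 and 500 nM. With a DMSO mean of at least 3 CPM, 265 IDs had log2 ratios at or under -1 at both concentrations. At 200 nM, 135 of the 265 had log2 ratios at or under -1 as well, 32 lay between -1 and -0.5, the 52 members lay within 0.5 of 0, and 46 lay at or above 0.5. The members thus lay above most of the 265 at 200 nM. Among the 52, the log2 ratio at 200 nM was above 0 for 26 and under 0 for 26.

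**Figure D1:**
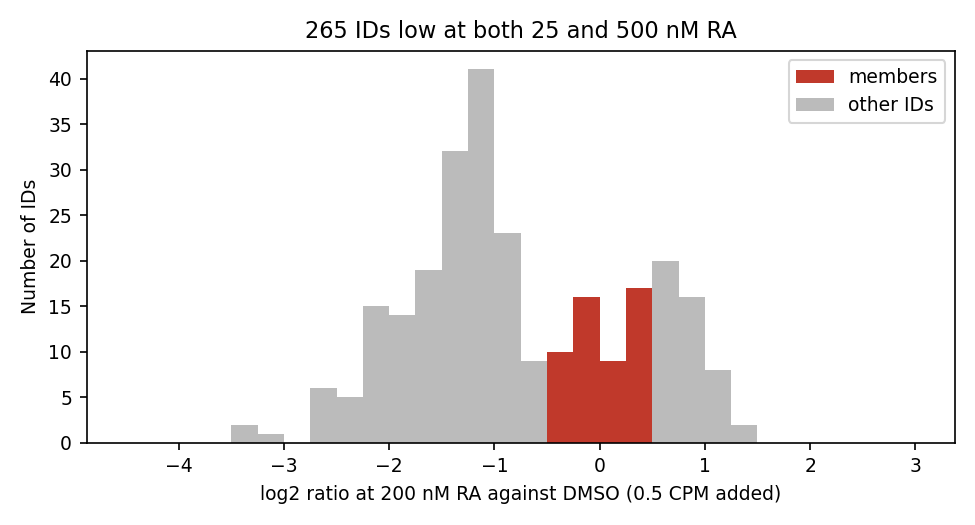
Number of IDs by their log2 ratio at 200 nM RA against DMSO (x axis, 0.5 CPM added to both means), for the 265 IDs that were low at both 25 and 500 nM. The 52 members (red) lie between -0.5 and 0.5, with 135 IDs at or under -1 and 46 at or above 0.5.

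The limits of the rule passed through a continuous range of values. At 25 nM the members nearest the limit had log2 ratios of -1.03 and -1.04, and the IDs just outside it had -0.97 and -0.92. At 500 nM the nearest members had -1.02 and -1.04, and the nearest IDs outside had -0.97 and -0.93. Membership near a limit therefore rests on small differences. At 200 nM the highest members had 0.498 and 0.474 and the next IDs outside had 0.501 and 0.512, while the lowest members had -0.48 and -0.47 and the next IDs outside had -0.60 and -0.62. The DMSO means nearest the minimum were 3.01 and 3.21 CPM inside and 2.99 and 2.94 CPM outside. Of 64 IDs that met the rule at DMSO, 25 nM and 200 nM, 12 missed it at 500 nM.

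Most members were of low abundance. Their DMSO means ran from 3.01 to 70.8 CPM with a median of 5.85 CPM, against a median of 16.2 CPM over the 16091 IDs with a DMSO mean of at least 3 CPM. Only 13 of the 52 reached 10 CPM, and 22 were under 5 CPM. On the length-scaled measure of the second table, TPM (transcript abundance scaled to a common total), the DMSO means had a median of 2.81 TPM for the members and 9.64 TPM for the 16091 IDs. The members' counts summed to 1597 to 8047 per library at 500 nM, against 9167 to 13049 per DMSO library.

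The library levels, as a percentage of each member's DMSO mean, fell into clear steps. The median over the 52 members was 102%, 96.4% and 101% in DMSO replicates 1, 2 and 3. It was 20.3%, 17.9% and 19.5% in the 3 libraries at 25 nM RA. All 25 nM libraries lay under all DMSO libraries for 52 of 52 members, which the rule favours, against 34.2% of the 16091 IDs.

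At 200 nM RA the median was 102%, 120% and 86.4% in replicates 1, 2 and 3, so that these libraries stood on either side of DMSO. The 200 nM and DMSO ranges overlapped for 41 of the 52 members, which the rule favours, against 60.4% of the 16091 IDs. The rule likewise works against ranges that lie apart. All 3 libraries at 200 nM were above all DMSO libraries for 6 members (9.90% of the 16091 IDs) and under them for 5 (29.7% of the 16091 IDs). These shares rest on the scaling by library total. Scaled by edgeR's TMM factors, added after seeing the data, the counts were 8 (21.3%) and 3 (24.1%).

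At 500 nM RA the 3 libraries did not share a level. The median was 37.8% of DMSO in replicate 1, 6.04% in replicate 2 and 25.9% in replicate 3. These 3 libraries were thus far apart, with replicate 2 the lowest. All 3 libraries were nevertheless under all DMSO libraries for 52 of 52 members, which the rule favours, against 41.6% of the 16091 IDs.

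**Figure D2:**
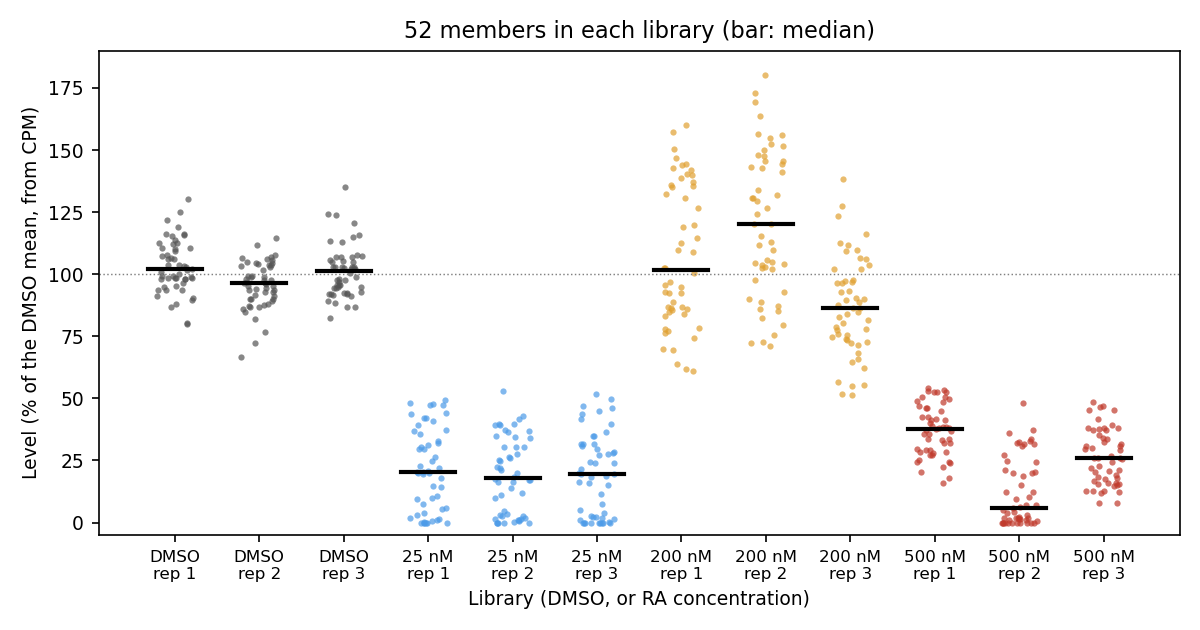
Level of each of the 52 members (points) in each of the 12 libraries, as a percentage of the member's own DMSO mean (y axis, from CPM), with the median as a bar. The 3 libraries at 25 nM share a median of 17.9% to 20.3%, while the 3 at 500 nM stand at 37.8%, 6.04% and 25.9%.

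The summed level of the members showed the same steps. The 52 together held 545, 516 and 532 CPM in the DMSO libraries and 113, 114 and 113 CPM at 25 nM. At 200 nM they held 587, 662 and 483 CPM. At 500 nM they held 206, 73.9 and 146 CPM in replicates 1, 2 and 3, so that replicates 1 and 3 were above the 25 nM libraries and replicate 2 was under them.

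The order of the 500 nM libraries was shared by nearly all members. Replicate 1 was above replicate 3 and replicate 3 above replicate 2 for 48 of the 52, against 12.6% of the 16091 IDs. Replicate 2 was the lowest for 50 members, against 22.9%, and replicate 1 the highest for 50, against 27.2%. The rule uses the mean of the 3 libraries and not their order.

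At 200 nM replicate 3 was low for most members. Replicate 3 was the lowest for 39 of the 52 members, against 7.93% of the 16091 IDs, and replicate 2 was the highest for 41, against 48.6%. By CPM, replicate 1 at 200 nM read low for most genes, with a median of 84.9% of DMSO over the 16091 IDs against 98.1% in each of replicates 2 and 3. Scaling by edgeR's TMM factors gave members' medians of 119%, 121% and 87.3% in replicates 1, 2 and 3. With that scaling, added after seeing the data, replicate 3 was the lowest for 48 members, against 35.9% of the 16091 IDs, and replicate 2 the highest for 22, against 31.1%. The share of 7.93% thus rests on the scaling by library total. The order of the 500 nM libraries held for 48 members with TMM as well, against 19.6% of the 16091 IDs.

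XBXL10_1g23345, the member with the highest DMSO level on both the CPM and the TPM scale, had many counts. Its means were 2.59% of DMSO at 25 nM and 135% at 200 nM, against member medians of 20.8% and 101%. It had 69.9, 70.3 and 72.4 CPM in DMSO and 2.0, 1.87 and 1.62 CPM at 25 nM RA. At 200 nM it had 102, 111 and 73.6 CPM, and at 500 nM 27.1, 1.39 and 16.1 CPM in replicates 1, 2 and 3. The 200 nM libraries were all above the DMSO libraries, while at 500 nM replicate 2 lay under every library at 25 nM and replicates 1 and 3 far above them. As mean ± SD of 3 libraries, the levels were 70.8 ± 1.34 CPM in DMSO, 1.83 ± 0.193 CPM at 25 nM, 95.5 ± 19.4 CPM at 200 nM and 14.9 ± 12.9 CPM at 500 nM. The SD at 500 nM was thus nearly as large as the mean. On the TPM scale its means were 244 TPM in DMSO, 6.51 TPM at 25 nM, 340 TPM at 200 nM and 52.7 TPM at 500 nM.

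XBXL10_1g35623 had the lowest log2 ratio at 25 nM of all members, -5.51 with 0.5 CPM added. It had 25.7, 22 and 26.5 CPM in DMSO and 1, 2 and 1 counts in the libraries at 25 nM RA, so that the size of this fall depends on the 0.5 CPM added. At 200 nM it had 34.8, 36.6 and 27.2 CPM. At 500 nM replicates 1, 2 and 3 had 9.45, 0 and 6.04 CPM. Replicate 2 had 0 counts, where the level of replicate 1 would have given 204 counts at its depth and that of replicate 3 would have given 131.

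XBXL10_1g10820 and XBXL10_1g23525 had the highest log2 ratios at 200 nM, 0.498 and 0.474. XBXL10_1g10820 had 4.63, 4.05 and 5.47 CPM in DMSO, and 1, 4 and 2 counts at 25 nM. It had 6.79, 8.50 and 5.31 CPM at 200 nM, and 2.30, 0 and 1.04 CPM (90, 0 and 24 counts) at 500 nM. XBXL10_1g23525 had 3.87, 3.43 and 3.22 CPM in DMSO, and 0, 1 and 0 counts at 25 nM. It had 5.62, 5.73 and 3.84 CPM at 200 nM, and 1.18, 0 and 1.08 CPM (46, 0 and 25 counts) at 500 nM. In both, replicate 3 was the lowest library at 200 nM and replicate 2 held no count at 500 nM. The 4 members given by ID do not stand for all 52. All 4 had means under 10% of DMSO at 25 nM, as 19 of the 52 did. All 4 had means above DMSO at 200 nM, as 26 of the 52 did.

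**Figure D3:**
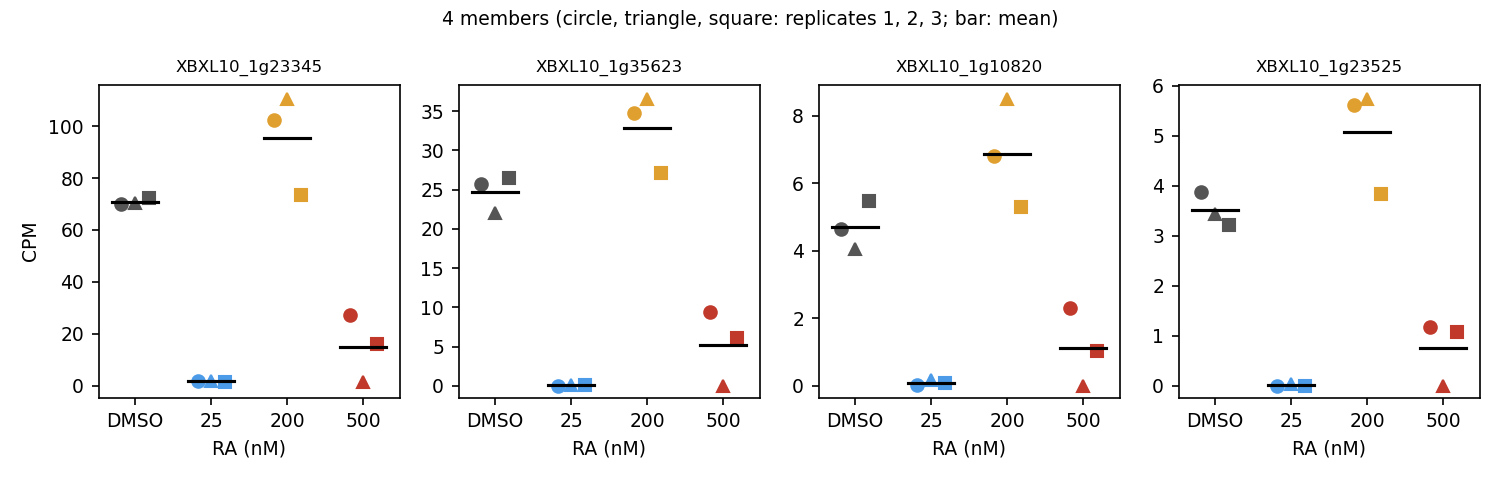
CPM (y axis, linear, 1 scale per panel) of the 4 members given by ID in DMSO and at 25, 200 and 500 nM RA (x axis), with replicates 1, 2 and 3 as circle, triangle and square and the group mean as a bar. In each panel the 500 nM triangle lies at or under the lowest 25 nM library, as for XBXL10_1g23345 at 1.39 CPM against 1.62 CPM. The 500 nM circle and square lie above the triangle.

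Other members fell by less and held together at 500 nM. The member ranked 2 had 61.3, 61.9 and 57.1 CPM in DMSO, 25.3, 31.9 and 29.8 CPM at 25 nM and 51.6, 61.4 and 53.5 CPM at 200 nM. It had 29.2, 22.3 and 22.9 CPM at 500 nM, a range that overlaps the one at 25 nM. The member ranked 7 had 15.1, 14.1 and 15.2 CPM in DMSO, 6.08, 5.87 and 6.49 CPM at 25 nM and 12.31, 13.12 and 12.43 CPM at 200 nM. Its 500 nM libraries had 7.38, 7.12 and 6.69 CPM, all above those at 25 nM, and its SD at 500 nM was 0.352 CPM. The members therefore did not all show the wide spread at 500 nM. These members were chosen after their values were seen.

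The members were set apart by how far they fell at 25 nM, with a limit chosen after the values were seen. At 25 nM, 19 members had a mean under 10% of DMSO and 33 had a mean at or above it. In 500 nM replicate 2, all of the 19 were under 10% as well, and 11 of the other 33 were. In replicate 1 none of the 19 was under 10%, and in replicate 3 1 of the 19 was. Replicate 2 thus stood near the 25 nM level for these members, and replicates 1 and 3 were above 10% for all but 1 of them, which was under it in replicate 3.

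The 19 members near zero at 25 nM differed little among themselves in replicate 1 when set against their 200 nM level. In replicate 1 they stood at a median of 29.3% of their 200 nM mean, with quartiles of 26.6% and 32.9%. In replicate 3 the median was 16.8%, with quartiles of 14.7% and 19.2%, and in replicate 2 it was 0, with a highest value of 3.60%. The ranges of replicates 1 and 3 over these members were 21.4% to 38.8% and 9.32% to 25.8%. For the other 33 members the medians were 39.0%, 17.9% and 31.9% in replicates 1, 2 and 3, so that replicate 2 held part of the 200 nM level there.

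Counting depth bears on the zeros directly. A count of 0 in 500 nM replicate 2 was found for 11 members, and 0 counts allow up to 0.139 CPM at its depth (3 counts, counting error only). At the level of replicate 1 these 11 would have given 15.5 to 204 counts each in that library, and at the level of replicate 3 8.39 to 131. Their summed counts were 976, 0 and 343 in 500 nM replicates 1, 2 and 3, and 24, 26 and 18 at 25 nM. In all 3 libraries at 25 nM, 3 members had 0 counts. In 500 nM replicates 1 and 3 each member had counts, the fewest being 23 and 6.

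**Figure D4:**
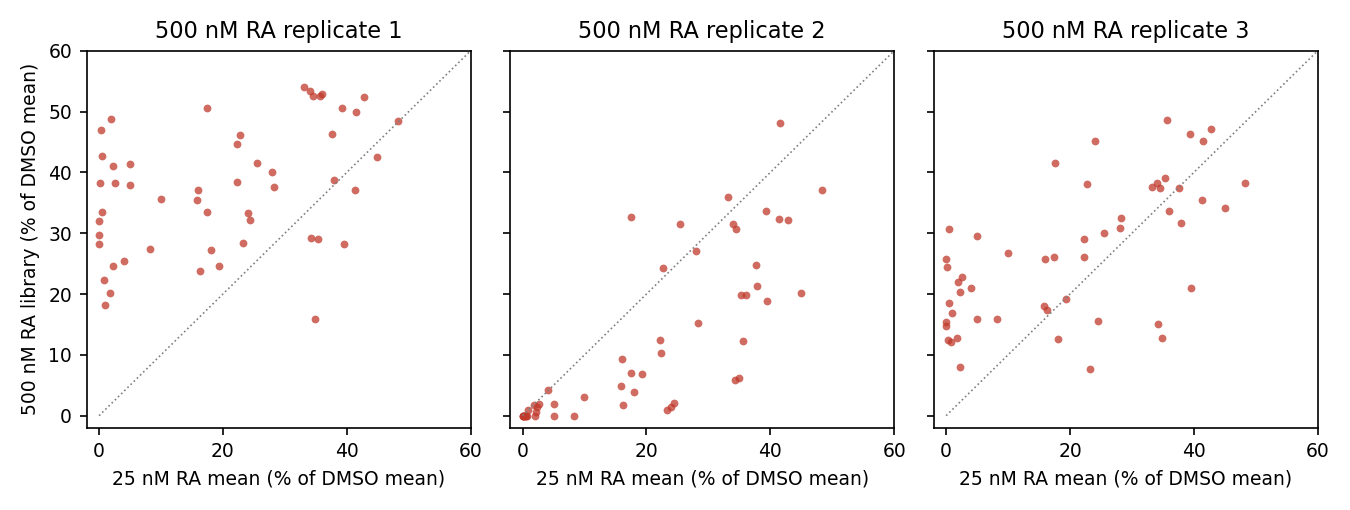
Level of the 52 members in each 500 nM RA library (y axis) against their mean at 25 nM RA (x axis), both as a percentage of the DMSO mean, with the line of equality dotted. In replicate 2 the 19 members under 10% at 25 nM are all under 10%, while in replicate 1 none of them is.

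Set against the 25 nM libraries themselves, replicate 1 at 500 nM was above all 3 for 43 members (19.6% of the 16091 IDs) and under all 3 for 4 (40.7%). Replicate 3 was above all 3 for 29 members (19.8%) and under them for 9 (42.6%). Replicate 2 was above them for 3 members (30.7%) and under them for 31 (33.8%). With TMM scaling, replicate 1 was above for 44 (31.4%) and under for 3 (33.8%). Replicate 3 was then above for 30 (30.8%) and under for 8 (34.7%), and replicate 2 for 2 (33.4%) and 31 (35.9%). A member with 0 counts in any 25 nM library cannot lie under all 3, which limits the counts of members under them. Taken as whole groups, the 500 and 25 nM ranges overlapped for 47 members, against 68.2% of the 16091 IDs. The 3 members with 0 counts in all 25 nM libraries also had 0 counts in 500 nM replicate 2. They count as overlapping only through that tie at 0.

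Placed between the group means at 25 and 200 nM, with 0% at the 25 nM mean and 100% at the 200 nM mean, the 500 nM libraries took 3 positions. The members' median position was 21.0% in replicate 1, with quartiles of 10.7% and 27.4%. It was -7.72% in replicate 2, with quartiles of -19.6% and -0.274%, and 8.16% in replicate 3, with quartiles of 1.12% and 14.9%. Replicate 2 was therefore under the 25 nM mean for most members. For comparison, 63 IDs that were low at 25 nM and had a log2 ratio of at least 0.5 at 200 nM had median positions of 25.4%, -0.109% and 15.5% in the same libraries. Those IDs were cut from the same values, and the difference from the members was not tested.

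The spread among the 3 libraries of a group, which the rule did not use, was wide for the members at 500 nM. The median SD of log2(CPM + 0.5) over the 52 members was 0.13 in DMSO, 0.19 at 25 nM, 0.26 at 200 nM and 0.70 at 500 nM. Over the 16091 IDs it was 0.09, 0.09, 0.14 and 0.09. The 2 sets were not matched for level, and the members' median level at 500 nM was 1.33 CPM. For the 13 members with a DMSO mean of at least 10 CPM, the median SD at 500 nM was 0.96. At 25 nM, where 3 members had 0 counts in every library, the 0.5 CPM added limits the spread that can be seen. Among the members, the 19 near zero at 25 nM had a median SD of 1.04 at 500 nM, and the other 33 had 0.40.

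The 135 IDs that were low at all 3 concentrations had a median SD of 0.21 at 500 nM. The 63 IDs that were low at 25 nM and high at 200 nM had 0.95. The spread at 500 nM was thus shared with IDs that were high at 200 nM, and was less among IDs that were low there. The 500 nM libraries had the order 1, 3, 2 from high to low for 48 of 52 members (92.3%), against 58 of the 63 (92.1%) and 46 of the 135 (34.1%). These sets were cut by the same group means, and no test was made between them.

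**Figure D5:**
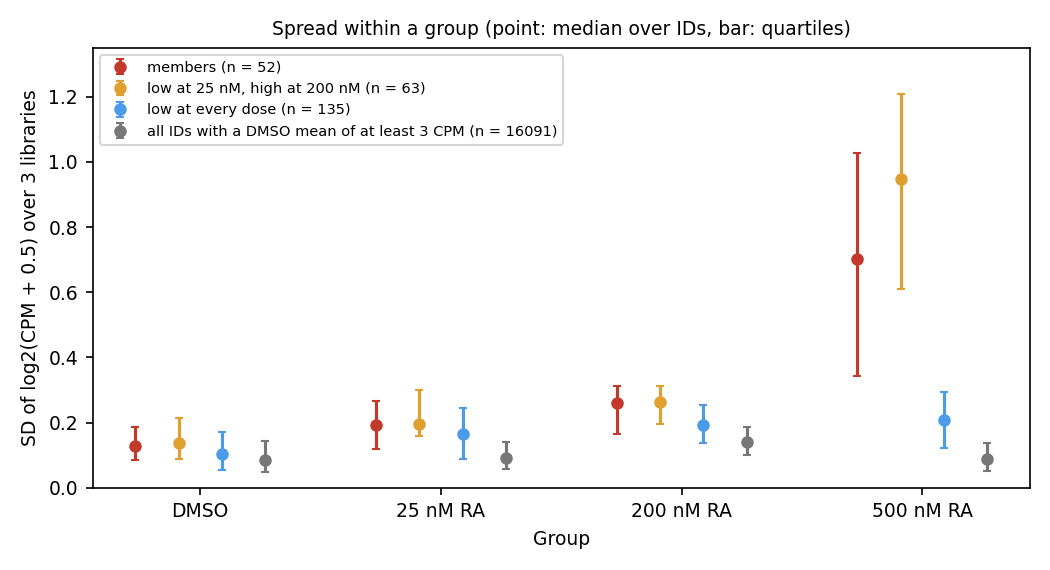
SD of log2(CPM + 0.5) over the 3 libraries of each group (y axis), as the median (point) and quartiles (bar) over the IDs of each set. The members stand at 0.70 and the IDs low at 25 nM and high at 200 nM at 0.95 in the 500 nM group, against 0.21 for the IDs low at every concentration and 0.09 for all 16091 IDs.

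Each library was also viewed with members chosen without it, so that its own values played no part in the choice. Without 500 nM replicate 2 the rule took 46 IDs, all of them among the 52, and their median level in that library was 4.07% of DMSO. Without replicate 1 it took 54, with a median of 38.0% in replicate 1, and without replicate 3 it took 52, with a median of 25.9% in replicate 3. In replicates 1 and 3 these were close to the values for the 52, 37.8% and 25.9%. In replicate 2 the 4.07% was under the 6.04% for the 52. The members not among the 46 met the limit at 500 nM only with replicate 2 included. At 200 nM, the 60 IDs chosen without replicate 2 had a median of 142% in it, with quartiles of 105% and 160%, against 120% for the 52 members. Most of the 60 thus stood above their DMSO mean in that library. Those chosen without replicate 3 had a median of 84.0% in it, against 86.4% for the 52. At 25 nM the medians of the library left out were 20.3%, 17.5% and 19.7%, though 1 ID chosen without replicate 1 stood at 154% of DMSO in it.

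The difference between 500 and 25 nM RA was tested for each ID. The rule sets no direct limit on it, but the members were chosen on both group means against DMSO, so these calls are a description. The test was edgeR's quasi-likelihood test over 24454 IDs in 1 fit of all 12 libraries, with Benjamini-Hochberg adjustment over these IDs. All 52 members were among the IDs tested. The fit takes 1 estimate of the spread per ID from all 4 groups. For the members this mixes unlike spreads, with a median SD of 0.70 at 500 nM against 0.13 in DMSO and 0.19 at 25 nM. At an adjusted p under 0.05, 10 members (19.2%) differed, against 17.0% of all IDs. Of these, 8 were higher at 500 nM (8.85% of all IDs) and 2 were lower (8.13%). This share is near the background. Of the 8, those ranked 1, 5, 29, 35, 46 and 50 were near zero at 25 nM. They had 30, 0, 1, 0, 0 and 0 counts in 500 nM replicate 2, and wide errors. For the member ranked 5 the log2 fold change was 6.73 with an SE of 4.25. Over all 52 members, called or not, the median log2 fold change was 0.43, against 0.00 over all IDs.

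The split between higher and lower rested on which 500 nM library was included. Without replicate 2, 26 members differed, 24 higher and 2 lower at 500 nM, where 14.1% of all IDs were called. Without replicate 1, 8 differed, 2 higher and 6 lower, where 14.4% of all IDs were called. Without replicate 3, 4 differed, 2 higher and 2 lower, where 13.7% of all IDs were called. A fit without replicates 1 and 3 at 500 nM and replicate 3 at 200 nM was also run, a choice made after seeing the data. The members stood highest in those 500 nM libraries, so leaving them out favours lower values at 500 nM. In that fit 500 nM has 1 library, whose spread is taken from the other groups, and its calls are not read. Leaving out 25 nM replicate 1, 2 or 3 left 4, 5 and 6 calls, where 12.6%, 13.5% and 13.2% of all IDs were called.

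Without overlap by CPM, 2 members had all 500 nM libraries above all 25 nM libraries (10.5% of the 16091 IDs). For 3 members they were all under (21.3%). With TMM scaling the counts were 2 and 2, against 16.6% and 18.8%. Of the 5 by CPM, those ranked 27, 12 and 45 also passed the test. They are given because they meet both conditions, a choice made after seeing the data. The member ranked 27 had 2.94, 1.90 and 2.42 CPM at 500 nM, against 1.18, 0.999 and 0.868 CPM at 25 nM, a log2 fold change of 1.32 (SE 0.23) with an edgeR adjusted p of 9.28e-06. The member ranked 12 had 2.84, 1.90 and 2.11 CPM at 500 nM, against 4.97, 3.45 and 3.51 CPM at 25 nM, a log2 fold change of -0.72 (SE 0.17) with an edgeR adjusted p of 0.00107. The member ranked 45 had 0.588, 0.231 and 0.475 CPM at 500 nM, against 1.75, 0.957 and 1.17 CPM at 25 nM, a log2 fold change of -1.46 (SE 0.33) with an edgeR adjusted p of 0.000534. All 3 kept the order of replicates 1, 3 and 2 at 500 nM. XBXL10_1g23345 passed the same test at an adjusted p of 0.0478 with a log2 fold change of 3.19 (SE 1.12), although its 500 nM replicate 2 lay under the 25 nM libraries.

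In the same edgeR fit the members passed the tests that their choice favours. Against DMSO, 52 were lower and 0 higher at 25 nM, where 40.0% of all IDs were called, 20.3% lower and 19.6% higher. At 500 nM 51 were lower and 0 higher, where 44.9% of all IDs were called, 22.6% lower and 22.3% higher. The member that did not pass at 500 nM was ranked 42, with 0 counts in replicate 2 there. All 52 were higher at 200 than at 25 nM, where 19.9% of all IDs were called, 10.2% higher and 9.67% lower. All 52 were lower at 500 than at 200 nM, where 29.1% of all IDs were called, 15.1% lower. Nothing about the members is read from these counts, and the comparisons share libraries.

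Between 200 nM RA and DMSO, where the rule bounds the change, 5 members were called, against 27.5% of all IDs. Of these, 3 were higher (14.5% of all IDs) and 2 lower (12.9%). The members that passed were ranked 6, 27 and 39 (higher) and 12 and 14 (lower). A p that misses the threshold does not show that the other 47 stood at the DMSO level. The fit without replicates 1 and 3 at 500 nM and replicate 3 at 200 nM was not read here either. Leaving out the 200 nM library where the members stood lowest favours higher values at 200 nM. Without DMSO replicate 3 alone, 0 members were called by edgeR (5 with an unadjusted p under 0.05), where 23.1% of all IDs were called. Without DMSO replicate 1 or 2 the calls were 3 and 2, and without 200 nM replicate 1 or 2 they were 3 and 2. Without 25 nM replicate 2 or 500 nM replicate 3 they were 3 and 3. In these fits 22.9% to 26.6% of all IDs were called. The direction varied with the 200 nM library left out. Without replicate 1 the 3 calls were all lower (23.5% of all IDs), and without replicate 3 the 4 calls were all higher (23.8%). Without 500 nM replicate 2 the calls were 10 (28.2% of all IDs). That library belongs to neither group compared, but the estimate of the spread is shared by all 4 groups. With the compared groups alone, where no 25 or 500 nM library enters that estimate, 13 members were called (29.6% of all IDs). How far the shared estimate sets the calls was not tested further.

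A property that the rule did not use was the transcript length implied by the 2 deposited tables, the count divided by TPM within a library. Scaled to the typical ID of each library, the members' implied length had a median of 1.25, with quartiles of 0.638 and 1.93, against 1.01 with quartiles of 0.603 and 1.62 over the 16091 IDs. The quartile ranges overlap widely, and no test was made. The IDs low at 25 nM and high at 200 nM also had a median of 1.25, and those low at every concentration had 0.981. Among the members, the 19 near zero at 25 nM had a median of 0.975 and the other 33 a median of 1.28. None of the members had counts identical to another ID in all libraries.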

How the data were processed

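Per the labels' protocols, RNA of each pool was extracted with a column kit and stranded mRNA libraries were prepared. The authors deposited 2 tables by gene ID, one of expected counts, all whole numbers so that rounding changed none, and one of TPM. RSEM 1.3.0 and Bowtie2 are named in the submitters' processing notes. Their order was not given in the sources used here, nor was a genome build or gene annotation. Expected counts of near-identical copies, such as L and S copies, are estimates. Of 44479 rows, the 1 that names no gene held 0 counts and was left out.

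Counts were tested in R 4.3.3 with edgeR 4.0.16 (filterByExpr with a minimum count of 10, 24454 IDs; TMM factors 0.891 to 1.06; robust quasi-likelihood fit of 4 groups without a replicate block; Benjamini-Hochberg adjustment). Standard errors were computed from the fitted means and dispersions, and were never set under the counting error. The steps were tested on simulated data that gave all IDs and groups a common dispersion. That test does not bear on the unequal spreads of the members. CPM against TMM moved the median log2 ratio to DMSO over the 16091 IDs by at most 0.09 in a group. The TMM factor of 200 nM replicate 1 was 0.891 (log2 of -0.17), against 1.03 to 1.06 in the DMSO libraries. Alternatives were DESeq2 1.42.0 and its size factors, other filters, limma 3.58.1 on log2(TPM + 1) or log2(TPM + 0.1), a replicate block, the compared groups alone, and each library left out. The members and lists were chosen with earlier results of these data known.

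The planned rule for named genes took, with no symbols at hand, the members with the highest DMSO mean and the lowest log2 ratio at 25 nM, and the 2 with the highest log2 ratio at 200 nM.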

Additional observations from a re-analysis of the deposited data

How the results depend on the processing

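The number of members, 52, became 13 with a DMSO minimum of 10 CPM, 122 with a minimum of 1 CPM and 25 with a log2 ratio at 200 nM within 0.25 of 0 (the last chosen after seeing the data). With TMM-scaled CPM it was 42, all among the 52, and with the rule applied to TPM it was 54, of which 23 were shared. The members' DMSO means had a median of 2.81 TPM, so a minimum of 3 on that scale drops many of them whatever their ratios. With 3 libraries left out together (500 nM replicates 1 and 3 and 200 nM replicate 3, chosen after seeing the data) the number of members was 46, of which 45 were shared. Leaving out each library in turn gave 45 to 60.

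Between 200 nM and DMSO, the 5 calls became 8 without a filter (18.6% of all IDs called), 13 with the compared groups alone (29.6%), 1 by DESeq2 (15.2%) and 20 without the 3 libraries (24.3%). The calls without the 3 libraries are not read. All of them were higher at 200 nM, the direction that leaving out 200 nM replicate 3 favours. The 5 calls became 0 by limma on log2(TPM + 1), log2(TPM + 0.1) and log2(TPM + 1) without a filter (23.2%, 22.5% and 12.36% of all IDs). In these limma settings 6, 4 and 7 members had an unadjusted p under 0.05. Between 500 and 25 nM, the 10 calls became 4 of 37 members tested with the compared groups alone (17.4% of all IDs). They became 17 by DESeq2, 15 of them higher (8.89%), and 1, 2 and 1 by the same limma settings (10.3%, 10.4% and 4.83%). Between 500 and 200 nM, the 52 calls became 34 with the compared groups alone (29.1%). In that setting the 51 calls at 500 nM against DMSO became 37 (45.7%), and by DESeq2 they were 46 (27.0%). Leaving out each library in turn gave 0 to 10 calls for 200 nM and 43 to 52 for 500 nM against DMSO, 52 to 52 for 25 nM against DMSO, 48 to 52 for 200 against 25 nM, 45 to 52 for 500 against 200 nM and 4 to 26 for 500 against 25 nM. The cause was not tested.

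The replicate block gave 52, 5 and 48 calls at 25, 200 and 500 nM against DMSO, 51 for 200 against 25 nM, 48 for 500 against 200 nM and 7 for 500 against 25 nM. Pairs of libraries with the same number, 18 in all, had correlations of their deviations from -0.0535 to 0.107, and 1 exceeded 0.1. The numbers were therefore not used as a pairing.

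The median level as a percentage of DMSO moved beyond its spread to 21.1% (25 nM replicate 3) and 119% (200 nM replicate 1) with TMM scaling. With members of at least 10 CPM alone it was 97.5% in DMSO replicate 3, and 26.6% and 22.6% in 25 nM replicates 1 and 2. With members chosen without the library shown it was 98.8% and 95.5% in DMSO replicates 1 and 3 and 142% in 200 nM replicate 2. The median position of DMSO replicates 1, 2 and 3 between the 25 and 200 nM means, 97.2%, 90.7% and 95.5%, became 89.2%, 84.9% and 88.2% with TMM scaling, 92.0%, 86.7% and 88.0% with TPM, and 117% and 101% in replicates 1 and 2 with members of at least 10 CPM alone. The 41 members with 200 nM replicate 2 the highest became 22 with TMM scaling. With members of at least 10 CPM alone, the positions of 500 nM replicates 1, 2 and 3 were 11.5%, -12.1% and 4.79%, against 21.0%, -7.72% and 8.16% over all 52, and the median SD at 500 nM was 0.96 against 0.70. It was 0.53 with TPM. The 500 nM libraries spread widely, so smaller moves of their values are not resolved. Most members have few counts at 25 and 500 nM, which limits the precision of their ratios there.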
